A study of Mus musculus with 12 samples.

Results

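The genes of oxidative phosphorylation (OXPHOS) were examined in mouse muscle stem cells (MuSCs), after culture of these cells and after loss of the E3 ubiquitin ligase Nedd4L. Members were chosen by symbol alone: the mitochondrial-encoded genes mt-Nd, mt-Co, mt-Cytb and mt-Atp, and the nuclear genes whose symbols begin with Nduf, Cox4 to Cox8, Uqcr or Atp5, together with Sdha, Sdhb, Sdhc, Sdhd, Cyc1 and Cycs, without pseudogene symbols that hold -ps. The rule found 107 of the 16503 genes in the table of the culture comparison and 107 of the 16169 genes in the table of the genotype comparison, in each case 13 mitochondrial-encoded and 94 nuclear genes. Of these, 106 were listed in both tables. Ndufa4l2 was listed in the genotype table only, and the culture table held Atp5o under a second identifier as well. Ndufb4c, which the symbol rule takes in, is annotated as a transcribed processed pseudogene. Some Nduf symbols belong to assembly factors of complex I, and Ndufa4 is now counted with complex IV and both were placed by role.

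Complexes I to IV pass electrons from NADH and succinate to oxygen, complexes I, III and IV pump protons across the inner mitochondrial membrane as they do so, and complex V, the ATP synthase, uses the proton gradient to make ATP. Cytochrome c carries electrons from complex III to complex IV. Complexes I, III, IV and V are built from subunits of both genomes, whereas complex II is wholly nuclear-encoded and also serves in the citric acid cycle. Quiescent MuSCs are known to hold few mitochondria and to gain respiratory capacity as they activate, and mature muscle fibers use their own isoforms of several complex IV subunits.

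All libraries were SMART-seq libraries of 1000 cells, with 3 libraries in each of 4 groups. In the culture comparison, 3 libraries of freshly isolated WT MuSCs (replicates 4, 5 and 6) were set against 3 libraries of WT myoblasts (also numbered 4, 5 and 6), grown from sorted MuSCs for 3 days in Ham's F10 medium with serum and basic FGF. In the genotype comparison, MuSCs of 3 WT mice were set against MuSCs of 3 Nedd4L-cKO mice (replicates 1, 2 and 3 in both groups). These were male mice of 5 to 6 weeks. The Nedd4L-cKO mice were Nedd4L fl/fl with Pax7 cre/+, so that exon 15 was deleted in Pax7-expressing cells while the transcript was still made. Whether the WT mice carried Cre or the floxed allele, the age of the mice in the culture comparison, and whether its myoblasts came from the same mice as its MuSCs, are not given in the sources used here. Each myoblast library shares a number in its sample description with a MuSC library, but no source says that this number marks a mouse. MuSCs were sorted as ITGA7+ and Hoechst+ cells negative for CD31, CD45, CD11b and SCA1.

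Values are given as RPM, that is, normalized counts divided by the mean library total of the table and multiplied by 1000000, and log2 fold changes are differences of mean log2(RPM + 1). The totals were 33189802 to 37595659 normalized counts in the culture table and 40323468 to 50687122 in the genotype table. The counts had already been divided by normalization factors, so the sequencing depth of a library is unknown. In this gene-level table Nedd4l was at 70.2, 96.4 and 66.7 RPM in WT and at 30.2, 36.3 and 22.5 RPM in Nedd4L-cKO MuSCs, or -1.37 on the log2 scale (adjusted p = 0.0467, limma). Pax7, which marks MuSCs, was at 151 RPM or more in all 9 MuSC libraries and at 17.8 to 21.2 RPM in the myoblasts. Of 8 MuSC markers, 6 were lower and 0 higher in myoblasts at an adjusted p of at most 0.05, beside 20.6% and 22.2% of all genes. Between genotypes only Cd34 passed, as lower in Nedd4L-cKO (log2 fold change -1.64, adjusted p = 0.0293, limma), beside 0.261% of all genes. Calcr was lower without overlap (log2 fold change -0.90, adjusted p = 0.152), and Pax7 overlapped. Fibro-adipogenic markers summed to 458 to 622 RPM in the fresh MuSCs of the culture cohort and to 697 to 2634 RPM in the genotype cohort. Smooth muscle and pericyte markers summed to 1088 to 1399 RPM in the fresh MuSCs and 1633 to 2410 RPM in the myoblasts of the culture cohort. In the genotype cohort these markers summed to 1095 to 1771 RPM in WT and 2044 to 3005 RPM in Nedd4L-cKO. Endothelial markers summed to at most 103 RPM and hematopoietic markers to at most 38.0 RPM in any library. Fewer cells of a type and less RNA per cell cannot be told apart in such bulk samples.

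The counts taken by mitochondrial-encoded genes separated the genotypes but not MuSCs from myoblasts. All 107 members passed the filter of 10 normalized counts in 3 libraries in both tables, but in the culture table Cox4i2 passed through the MuSC libraries alone and the second Atp5o identifier through the myoblast libraries alone. In the culture comparison these 13 genes took 0.855%, 1.08% and 1.71% of the normalized counts of the 3 MuSC libraries, and 1.12%, 0.926% and 1.10% in the myoblast libraries. These groups overlapped, with means of 1.21% ± 0.446 (SD, n = 3) and 1.05% ± 0.107. In the genotype comparison the share was 2.83%, 3.24% and 4.04% in WT MuSCs and 5.70%, 5.60% and 6.21% in Nedd4L-cKO MuSCs. Here the groups did not overlap, and the mean was 3.37% ± 0.613 in WT and 5.84% ± 0.329 in Nedd4L-cKO. The WT MuSCs of the genotype cohort were thus above all WT MuSCs of the culture cohort. The cohorts were normalized separately, and mice, sort and library preparation cannot be told apart between them.

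**Figure D1:**
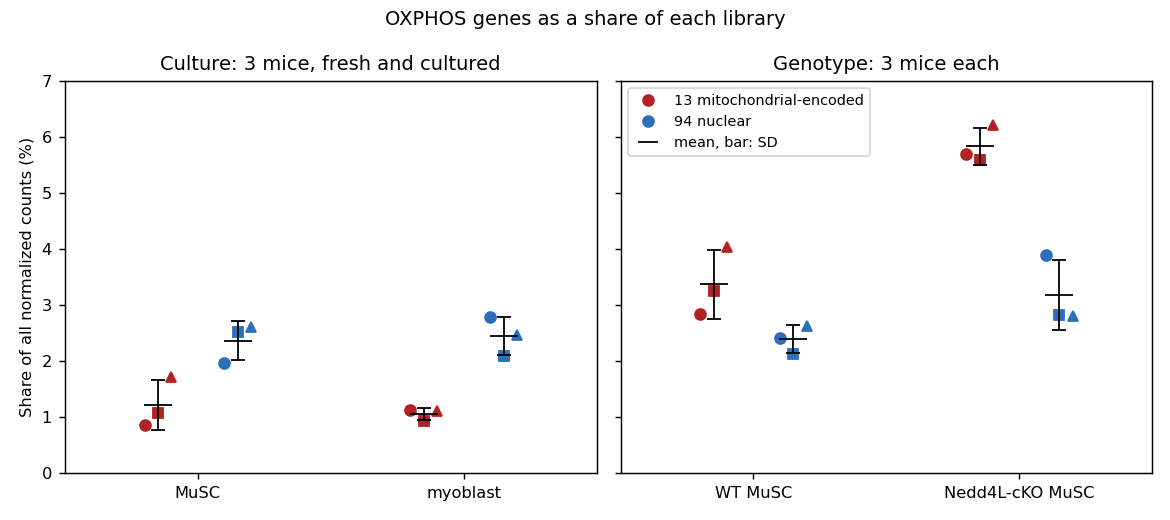
Share of all normalized counts (percent, y axis) taken by the 13 mitochondrial-encoded (red) and the 94 nuclear (blue) OXPHOS genes in each library (circle, square and triangle: replicates 4, 5 and 6 on the left, 1, 2 and 3 on the right), with mean and SD. The mitochondrial-encoded share was 5.60% to 6.21% in Nedd4L-cKO MuSCs and 2.83% to 4.04% in WT MuSCs, while MuSCs and myoblasts of the culture cohort overlapped. The title of the left panel names mice, but the sources do not say that MuSCs and myoblasts shared them.

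The 94 nuclear genes took 1.96%, 2.52% and 2.61% of the counts in the fresh MuSCs of the culture cohort and 2.79%, 2.10% and 2.46% in the myoblasts. Their share was 2.41%, 2.12% and 2.62% in WT MuSCs of the genotype cohort and 3.90%, 2.82% and 2.81% in Nedd4L-cKO MuSCs. The nuclear share of the WT MuSCs was therefore alike in range in both cohorts, unlike the mitochondrial-encoded share. The ratio of mitochondrial-encoded to nuclear OXPHOS counts was 1.18, 1.53 and 1.54 in WT and 1.46, 1.98 and 2.21 in Nedd4L-cKO MuSCs, so that for this ratio the genotypes overlapped. Between fresh MuSCs (0.435, 0.428 and 0.657) and myoblasts (0.400, 0.442 and 0.449) it overlapped too.

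In culture, Cox6a2 and Cox8b, the muscle isoforms of complex IV subunits, rose, and no mitochondrial-encoded gene passed the test with all libraries. Among 45 nuclear complex I genes, 8 were called lower, no more than the share of all genes, 20.6%. Of the 107 members, 5 were higher and 11 were lower in myoblasts when called at 0.05 or less (limma with Benjamini-Hochberg adjustment over 15345 genes). Of all genes tested, 42.8% passed this threshold, 22.2% as higher and 20.6% as lower, beside 16 of the 107 members. At an unadjusted p under 0.05, 10 members were higher and 21 lower, beside 51.5% of all genes in either direction, and the groups did not overlap for 16 higher and 15 lower members, beside 55.2%. When a log2 change of 1 or more in size and a mean level of 5 RPM or more were required too, 3 members remained, all higher, among them Cox6a2 and Cox8b, beside 25.2% of all genes in either direction. The members' median log2 fold change was -0.18 over the 13 mitochondrial-encoded and -0.18 over the 94 nuclear genes, beside 0.04 over all genes tested. Without MuSC replicate 4 or myoblast replicate 4 the lower calls were 24 and 23, and without MuSC replicate 5, MuSC replicate 6 or myoblast replicate 5 they were 3 each, so single libraries set this count. The higher calls were 3 or 4 with any 1 library left out. The balance of higher and lower calls depended on scaling: with each library scaled to its own total, which moved the median of all genes from 0.04 to 0.14, 13 members were higher and 6 were lower, and the medians were -0.04 and -0.05.

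Complex I transfers electrons from NADH to ubiquinone. Its core subunits carry the flavin and the iron-sulfur clusters, and its accessory subunits surround them. Of the 45 nuclear genes placed with complex I, 1 was called higher and 8 lower, beside 22.2% and 20.6% of all genes. Their median was -0.45. Of the 29 accessory subunits, 27 had a negative log2 fold change (median -0.46) and 6 were called lower, a share near the 20.6% of all genes. Other genes with transcripts under 1 kb had a median of -0.34, beside -0.35 for OXPHOS genes of that length. The accessory subunits called lower were Ndufv3, Ndufa6, Ndufb10, Ndufa13, Ndufa7 and Ndufb11.

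Ndufv3, an accessory subunit of the NADH-oxidizing module, was at 107, 182 and 188 RPM in MuSCs and at 79.7, 71.0 and 106 RPM in myoblasts. Every myoblast library was below every MuSC library, narrowly so for MuSC replicate 4, and the log2 fold change was -0.86 (SE 0.27, adjusted p = 0.0293). It was called in 10 of 15 alternative settings (adjusted p 0.00774 to 0.105), as was Ndufa7 (0.0136 to 0.0999), and Ndufa13 in 12 (0.0132 to 0.0973). Ndufa6, a LYR-motif subunit that binds the acyl carrier protein, was at 141, 171 and 183 RPM against 82.8, 81.3 and 111 RPM, a fall of 0.85 on the log2 scale that held under all 15 alternative settings. Ndufb10, a subunit of the membrane arm, was at 341, 389 and 369.5 RPM against 263, 162 and 205 RPM, again without overlap (log2 fold change -0.82, SE 0.21, adjusted p = 0.0119). Ndufb11 was lower in all myoblast libraries as well (log2 fold change -0.67), but was called in 7 of 15 alternative settings (adjusted p 0.0186 to 0.119).

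Of the 7 nuclear core subunits, 3 had a positive and 4 a negative log2 fold change. Ndufs8, which carries iron-sulfur clusters, fell from 354, 429 and 423 RPM to 285, 192 and 215 RPM (log2 fold change -0.81, SE 0.20, adjusted p = 0.0104). Every myoblast library was below every MuSC library. Ndufv1, the NADH-binding subunit, was at 235, 236 and 185 RPM in MuSCs and 423, 264 and 294 RPM in myoblasts and was not called (adjusted p = 0.0708). Among the 8 assembly factors under Nduf symbols, Ndufaf8 alone was called, at 41.7, 55.5 and 58.4 RPM in MuSCs and 31.9, 22.8 and 25.7 RPM in myoblasts (log2 fold change -0.93, SE 0.24, adjusted p = 0.0140). Leaving out MuSC replicate 5, MuSC replicate 6 or myoblast replicate 5 took its adjusted p to 0.0550, 0.0574 and 0.0592, the last being the highest over its alternatives (range 0.00660 to 0.0592).

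Complex II oxidizes succinate to fumarate and passes the electrons to ubiquinone. Sdha, its flavoprotein, was at 401, 392 and 334 RPM in MuSCs and 681, 484 and 512 RPM in myoblasts. Every myoblast library was above every MuSC library (log2 fold change 0.56, SE 0.19, adjusted p = 0.0409), but leaving out any 1 of the 6 libraries took the adjusted p to 0.0584 or more (0.0125 to 0.129 over all 15 alternatives, of which 8 kept the call). Sdhc, a membrane anchor, was at 58.7, 99.8 and 103 RPM against 262, 125 and 132 RPM, with myoblast replicate 4 far above the other myoblasts and MuSC replicate 4 the lowest. Its log2 fold change was 0.94 (SE 0.33, adjusted p = 0.0477), and it was called in 7 of 15 alternative settings (adjusted p 0.0289 to 0.144). The log2 fold change was 0.60 without myoblast replicate 4 and 0.68 without MuSC replicate 4. The iron-sulfur subunit Sdhb, at 615, 681 and 602 RPM against 741, 373 and 397 RPM, and the second anchor Sdhd, at 404, 474 and 494 RPM against 694, 461 and 482 RPM, overlapped between the groups. Myoblast replicate 4 had the highest level of all 4 complex II genes.

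Complex III moves electrons from ubiquinol to cytochrome c, and none of its 9 nuclear members was called, with a median log2 fold change of -0.05. The redox subunits Cyc1 (cytochrome c1) and Uqcrfs1 (the Rieske iron-sulfur protein) did not overlap between the groups. Cyc1 was at 443, 435 and 396 RPM in MuSCs and at 769, 487 and 514 RPM in myoblasts (log2 fold change 0.44, SE 0.21, adjusted p = 0.113). It passed the threshold where each library was scaled to its own total (adjusted p = 0.0398, range 0.0398 to 0.248 over its alternatives). Cytochrome c itself, Cycs, was at 124, 175 and 174 RPM against 280.3, 185 and 236 RPM, again with all myoblasts above all MuSCs (log2 fold change 0.56, adjusted p = 0.0727), and also passed when scaled to own totals (adjusted p = 0.0330, range 0.0330 to 0.205).

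Complex IV reduces oxygen, and 5 of its small nuclear subunits have a general form and a form restricted to certain tissues. Cox6a2 and Cox8b, the forms of heart and skeletal muscle, rose in myoblasts. Cox6a2 was at 0.489, 1.29 and 1.69 RPM in MuSCs and at 90.7, 83.1 and 188 RPM in myoblasts, which gave the largest change among the members (log2 fold change 5.76, SE 0.39, adjusted p = 1.3e-05). Cox8b was at 3.33, 2.91 and 4.38 RPM against 18.8, 15.7 and 34.6 RPM (log2 fold change 2.34, SE 0.36, adjusted p = 0.00107). Myoblast replicate 6 was highest for both, and both remained called under all 15 alternative settings.

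Cox6a1 and Cox8a, the general forms of these subunits, were called lower, but each in only 6 of 15 alternative settings. Cox6a1 was at 223, 389 and 335 RPM in MuSCs and at 235, 145 and 156 RPM in myoblasts, where MuSC replicate 4 lay below myoblast replicate 4 (log2 fold change -0.81, SE 0.27, adjusted p = 0.0355). Cox8a was at 321, 569.9 and 532 RPM against 310.1, 264 and 271 RPM, with MuSC replicate 4 close to the myoblasts (log2 fold change -0.71, SE 0.24, adjusted p = 0.0382). Over the alternatives the adjusted p ranged from 0.00701 to 0.129 for Cox6a1 and from 0.00600 to 0.140 for Cox8a, the highest without MuSC replicate 5. In myoblasts Cox6a2 thus reached a level per transcript length near that of Cox6a1, 281 against 368 RPM per kb, from 2.69 against 650 RPM per kb in MuSCs. Cox8b stayed far below Cox8a, at 38.6 against 509 RPM per kb in myoblasts.

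The other isoform pairs had no such opposite calls. Cox7a1, the muscle form, was at 2.40, 5.58 and 6.16 RPM in MuSCs and at 3.64, 3.52 and 5.47 RPM in myoblasts, and its general partner Cox7a2 at 180.5, 321 and 387 RPM against 259, 200.1 and 249 RPM. Both pairs of values overlapped. The testis form Cox6b2 stayed at or below 3.99 RPM in every library, while its general partner Cox6b1 was at 227 to 387 RPM. Cox4i2, a form known from lung and from cells that respond to low oxygen, was at 0.848, 1.42 and 2.01 RPM in MuSCs and at 0.0372, 0.133 and 0.238 RPM in myoblasts. It passed the filter through the MuSC libraries alone, so that it had to differ, and its place among the 11 lower calls is no support. Cox4i1, its general partner, was at 885, 984 and 931 RPM against 824, 566 and 649.9 RPM and was not called (adjusted p = 0.0655). Cox7a2l, a factor that joins complexes III and IV, was at 329.6, 225 and 217 RPM against 197, 144 and 156 RPM with no overlap. Its adjusted p was 0.0510 (0.0187 to 0.165 with 1 library left out).

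**Figure D2:**
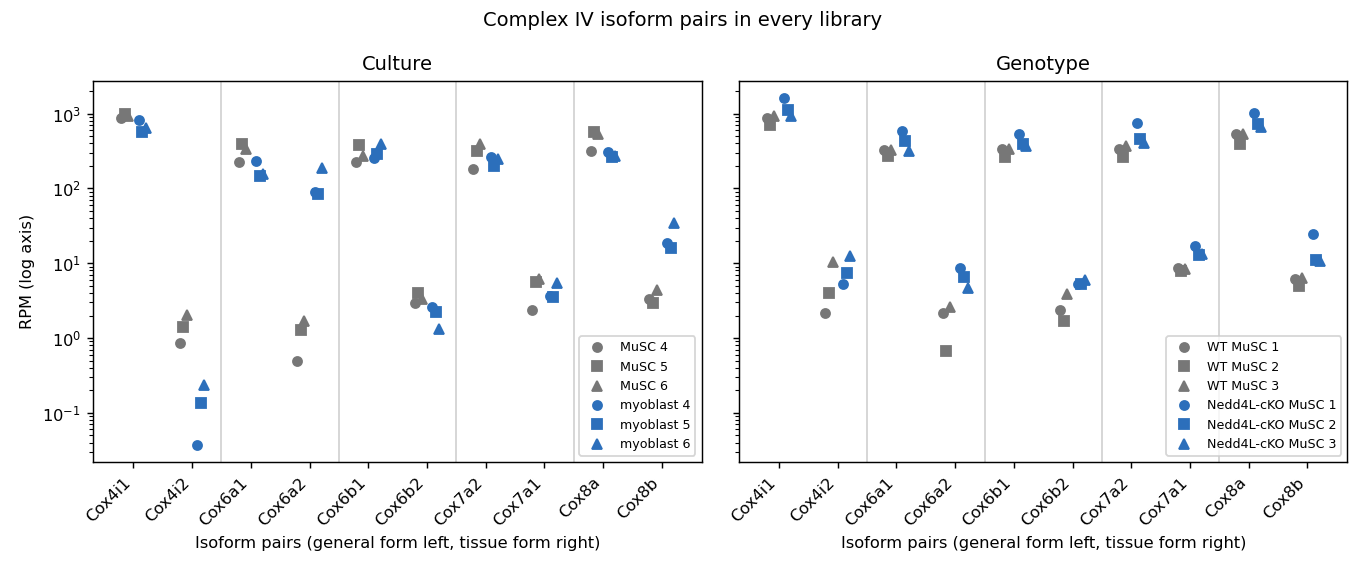
Levels (RPM, log y axis) of 5 complex IV subunit pairs, the general form left and the tissue form right in each pair, in every library (grey: MuSCs or WT MuSCs, blue: myoblasts or Nedd4L-cKO MuSCs). In myoblasts Cox6a2 stood at 83.1 to 188 RPM against 0.489 to 1.69 RPM in MuSCs, while Cox7a1 overlapped, and in the genotype panel all tissue forms stayed at or below 24.2 RPM.

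Markers of mature muscle fibers rose in the same myoblast libraries. Of 20 such genes, 17 were called higher and 0 lower, beside 22.2% and 20.6% of all genes. The summed level of the 20 genes was 602 to 913 RPM in MuSCs and 13373, 22951 and 36788 RPM in myoblast replicates 4, 5 and 6. Myoblast replicate 6, with the highest sum, also had the highest Cox6a2 and Cox8b. Replicate 4, with the lowest sum, nevertheless lay above replicate 5 for both genes. The part of fiber-forming cells in these values was not tested. The muscle form Cox7a1 was not called. Of the myoblast markers, Myod1, Myog, Mymk and Des were called higher and Myf5 lower.

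The promoters of these pairs that the RefSeq table holds are shown because Cox6a1 and Cox8a were called lower and Cox8b higher. Cox6a2 has no entry. Each runs from 250 bases before to 50 bases after the first listed start site (mouse build GRCm38.p6, written 5′ to 3′ on the gene's strand, here the minus strand of each chromosome). Capitals mark matches to the motifs searched, on both strands: the NRF1 motif (GCGC at both ends of a window of 10 bases), CCGGAAG (ETS factors), the YY1 motif, CAGCTG (E-box of myogenic factors), TCAAGGTCA (estrogen-related receptors) and the MEF2 motif. Atp5g3, with matches for NRF1 and for estrogen-related receptors, is added as a c-ring gene of complex V.
Cox6a1, chr5:115348909-115349208: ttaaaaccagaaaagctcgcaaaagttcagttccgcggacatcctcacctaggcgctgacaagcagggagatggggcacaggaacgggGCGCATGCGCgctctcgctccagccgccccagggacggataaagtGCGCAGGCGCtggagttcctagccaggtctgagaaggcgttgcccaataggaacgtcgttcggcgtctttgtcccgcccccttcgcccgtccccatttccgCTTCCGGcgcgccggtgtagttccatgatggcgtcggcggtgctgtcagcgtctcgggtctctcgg
Cox8a, chr19:7217567-7217866: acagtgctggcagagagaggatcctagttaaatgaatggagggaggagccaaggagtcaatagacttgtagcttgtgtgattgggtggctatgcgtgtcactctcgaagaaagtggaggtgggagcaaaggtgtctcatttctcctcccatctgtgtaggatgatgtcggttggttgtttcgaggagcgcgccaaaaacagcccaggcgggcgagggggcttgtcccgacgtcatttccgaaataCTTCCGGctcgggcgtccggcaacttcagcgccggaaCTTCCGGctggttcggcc
Cox8b, chr7:140900397-140900696: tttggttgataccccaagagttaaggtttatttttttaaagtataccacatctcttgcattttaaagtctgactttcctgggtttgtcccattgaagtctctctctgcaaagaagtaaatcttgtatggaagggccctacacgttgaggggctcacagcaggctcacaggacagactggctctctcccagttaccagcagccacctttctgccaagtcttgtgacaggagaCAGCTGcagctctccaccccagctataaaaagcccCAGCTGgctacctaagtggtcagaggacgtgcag
Atp5g3, chr2:73911277-73911576: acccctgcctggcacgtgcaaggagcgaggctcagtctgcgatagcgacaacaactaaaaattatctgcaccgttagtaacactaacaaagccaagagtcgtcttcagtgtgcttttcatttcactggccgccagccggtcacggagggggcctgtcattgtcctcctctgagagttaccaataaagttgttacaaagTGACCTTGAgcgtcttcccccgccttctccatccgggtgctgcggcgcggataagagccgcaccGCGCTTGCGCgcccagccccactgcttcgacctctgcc
Cox6a1 held matches for NRF1 and ETS factors, Cox8a for ETS factors and Cox8b for the E-box. Of the 93 nuclear protein-coding members, 76 had an entry. Of these, 26.3% held the NRF1 motif, beside 6.43% of all 27025 promoters of the same length, 23.7% the ETS motif beside 9.12%, and 6.58% the YY1 motif beside 0.699%. The E-box was held by 7.89% beside 16.1%, the motif of estrogen-related receptors by 2.63% beside 0.407%, and the MEF2 motif by 0 of 76 beside 3.26%. A match describes these letters only.

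Complex V makes ATP with its F1 head and passes protons through the ring of c subunits. None of its 18 nuclear entries was called in culture, with a median log2 fold change of -0.04. Atp5b, the catalytic beta subunit, was at 1474, 1746 and 1465 RPM in MuSCs and at 2304, 1927 and 2034 RPM in myoblasts. It did not overlap between groups and was not called (adjusted p = 0.0646), but passed when scaled to own totals (adjusted p = 0.0171, against 0.0816 to 0.165 with 1 library left out). Atp5e, the epsilon subunit, was at 84.1, 178 and 153 RPM against 62.3, 76.9 and 105 RPM with overlap. Its adjusted p was 0.0901 (0.0168 to 0.278 with 1 library left out). The c subunit is encoded by Atp5g1, Atp5g2 and Atp5g3, which give the same mature protein. Atp5g1 was at 231, 400.4 and 366 RPM against 505, 343 and 412 RPM, Atp5g2 at 28.9, 34.9 and 49.9 RPM against 31.7, 34.8 and 40.0 RPM, and Atp5g3 at 376, 433 and 448 RPM against 583, 470.3 and 543 RPM. Only for Atp5g3 were all myoblasts above all MuSCs, without passing the test (adjusted p = 0.135). The second Atp5o identifier was listed at 0, 0.0969 and 0 RPM in MuSCs and 0.297, 0.377 and 0.416 RPM in myoblasts, beside 447 to 689 RPM for Atp5o itself.

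**Figure D3:**
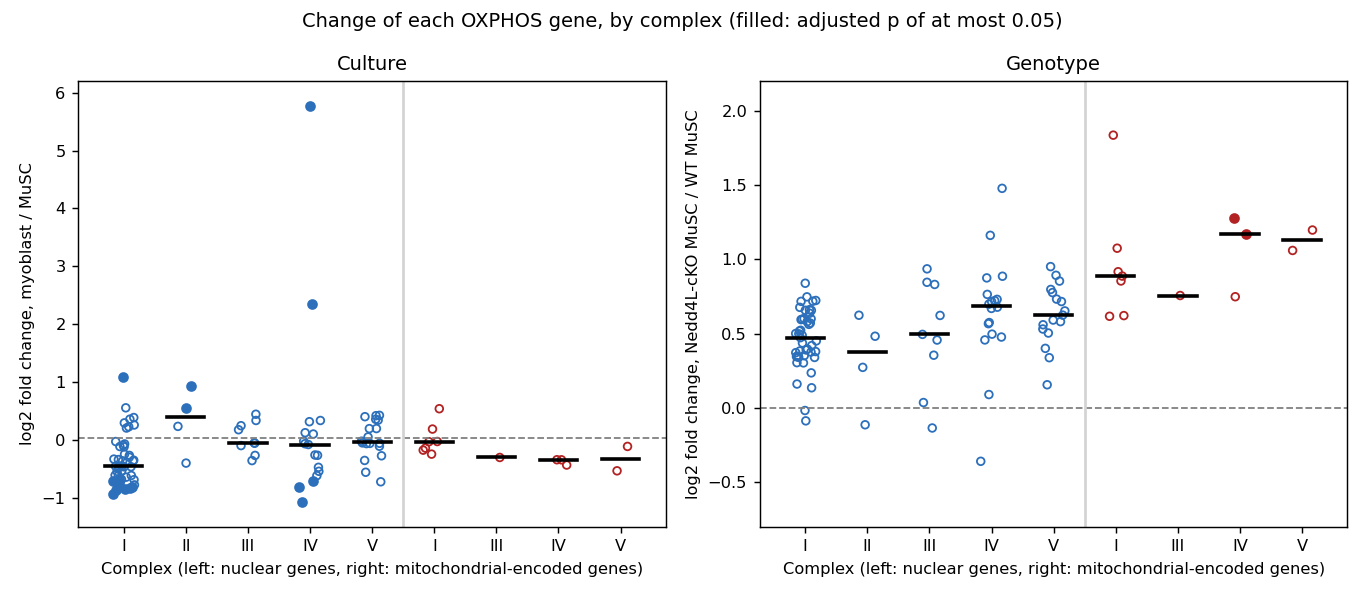
Log2 fold change (y axis) of each OXPHOS gene by complex, nuclear genes (blue) left and mitochondrial-encoded genes (red) right of the vertical line, with the median of each column (black bar) and of all genes tested (dashed). Filled points passed an adjusted p of at most 0.05: 16 nuclear genes in culture and mt-Co2 and mt-Co3 in the genotype comparison, where 102 of 107 members lay above 0.

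In Nedd4L-cKO MuSCs most OXPHOS transcripts lay above WT, the mitochondrial-encoded ones by more than the nuclear ones, but only mt-Co2 and mt-Co3 passed the test after adjustment. At an adjusted p of at most 0.05, 2 of 107 members were higher and 0 lower, beside 0.784% of all 15304 genes called, 0.523% as higher and 0.261% as lower. Both also had a log2 change of 1 or more and a mean level of 5 RPM or more, as did 0.653% of all genes, 0.451% as higher. At an unadjusted p under 0.05, 50 members were higher and 0 lower, beside 7.51% and 7.13% of all genes. The groups did not overlap for 58 members, all higher in Nedd4L-cKO, beside 9.75% of all genes as higher and 19.3% in either direction. With 1 library left out, 0 members were called higher without WT replicate 1 or 2 or Nedd4L-cKO replicate 1 or 2, and the unadjusted count was 18 to 79. The median log2 fold change was 0.92 over the mitochondrial-encoded and 0.56 over the nuclear members, beside 0.00 over all genes tested.

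The mitochondrial genome is transcribed as long precursors from both strands, and the messages are cut out at the transfer RNAs that lie between most of them. Only mt-Nd6 lies on the other strand. mt-Atp8 and mt-Atp6 overlap by 43 bases and mt-Nd4l and mt-Nd4 by 7 bases, and each pair stays on 1 message. These shared bases (capitals, GRCm39, plus strand) are shown because reads from them can be assigned to either gene of a pair.
mt-Atp8 and mt-Atp6, chrM:7927-7969: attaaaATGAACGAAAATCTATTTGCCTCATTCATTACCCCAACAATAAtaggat
mt-Nd4l and mt-Nd4, chrM:10167-10173: actacaATGCTAAaaatta
The library kit does not mark strand, so mt-Nd6 and reads from the opposite strand cannot be told apart. This holds also for the 14 bases (chrM:13552-13565) by which mt-Nd5 and mt-Nd6 overlap on opposite strands. mt-Atp6 and mt-Co3 share 1 base. mt-Atp8 (204 bases), mt-Nd4l (297 bases) and mt-Nd3 (348 bases) are so short that their estimated levels depend on the fragment length assumed in quantification.

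Of the 3 mitochondrial-encoded complex IV genes, which form its catalytic core, mt-Co2 was at 1880, 1953 and 2151 RPM in WT and at 5084, 4216 and 4215 RPM in Nedd4L-cKO MuSCs. Every Nedd4L-cKO library was above every WT library, and the log2 fold change was 1.17 (SE 0.22, adjusted p = 0.0399). mt-Co3 was at 4444, 4449 and 6515 RPM against 15528, 11095 and 10649 RPM, again without overlap (log2 fold change 1.28, SE 0.26, adjusted p = 0.0467). Over the alternatives the adjusted p ranged from 0.0198 to 0.163 for mt-Co2 and from 0.020 to 0.191 for mt-Co3. mt-Co2 missed the threshold without WT replicate 1, 2 or 3 or Nedd4L-cKO replicate 1 or 2, and mt-Co3 without WT replicate 1 or 2 or Nedd4L-cKO replicate 1 or 2. mt-Co1, the subunit that reduces oxygen, was at 5578, 6448 and 7923 RPM against 13149, 11276 and 9113 RPM and was not called (log2 fold change 0.75, adjusted p = 0.195).

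The mitochondrial-encoded genes of complex V came close to the threshold. mt-Atp6, part of the proton channel, was at 3466, 4401 and 5763 RPM against 8551, 9126 and 10209 RPM (log2 fold change 1.06, SE 0.25, adjusted p = 0.0809). mt-Atp8 was at 52.9, 67.6 and 101 RPM against 174, 167 and 154 RPM (log2 fold change 1.20, SE 0.27, adjusted p = 0.0727). Neither overlapped between the groups. mt-Cytb, the cytochrome b of complex III, was the only one of the 13 that overlapped: WT replicate 3 at 8640 RPM lay above Nedd4L-cKO replicate 3 at 8571 RPM, with the others at 5894 and 5999 RPM in WT and 14193 and 12110 RPM in Nedd4L-cKO.

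The 7 mitochondrial-encoded complex I genes, which build its proton-pumping membrane arm, had log2 fold changes of 0.62 to 1.84 (median 0.89), none called, and no overlap between groups for any of them. mt-Nd3 was at 19.7, 19.7 and 28.2 RPM in WT and at 52.2, 62.4 and 167 RPM in Nedd4L-cKO, with replicate 3 far above the other two (log2 fold change 1.84, SE 0.39, adjusted p = 0.0609). Without that library its log2 fold change was 1.32, the lowest over the alternatives, for which the adjusted p ranged from 0.020 to 0.174. mt-Nd2 was at 602, 662 and 813 RPM against 1134, 1248 and 2146 RPM, and mt-Nd1 at 3148, 3248 and 3779 RPM against 4278, 5181 and 6287 RPM. mt-Nd4 was at 1450, 1591 and 1819 RPM against 2608, 2853 and 3572 RPM, and its partner on the message, mt-Nd4l, at 45.3, 54.4 and 51.8 RPM against 80.6, 85.6 and 128 RPM. Again Nedd4L-cKO replicate 3 was the highest library for each of these genes. mt-Nd5 was at 885, 910.3 and 973 RPM against 1212, 1338 and 1763 RPM, and mt-Nd6 at 140.5, 170.2 and 182 RPM against 219, 269.9 and 439 RPM.

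The Nedd4L-cKO libraries differed among themselves in which mitochondrial-encoded genes stood out. Replicate 3 was highest of all 6 libraries for 8 of the 13 genes, the 7 mt-Nd genes and mt-Atp6, whereas replicate 1 was highest for the other 5, mt-Co1, mt-Co2, mt-Co3, mt-Cytb and mt-Atp8. Summed over a complex, the mt-Nd genes were at 9584, 11038 and 14503 RPM in Nedd4L-cKO replicates 1, 2 and 3, and the mt-Co genes at 33761, 26587 and 23976 RPM. In WT the sums were 6291, 6655 and 7647 RPM and 11901, 12851 and 16589 RPM. WT replicate 1 was the lowest library for all 13 genes.

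**Figure D4:**
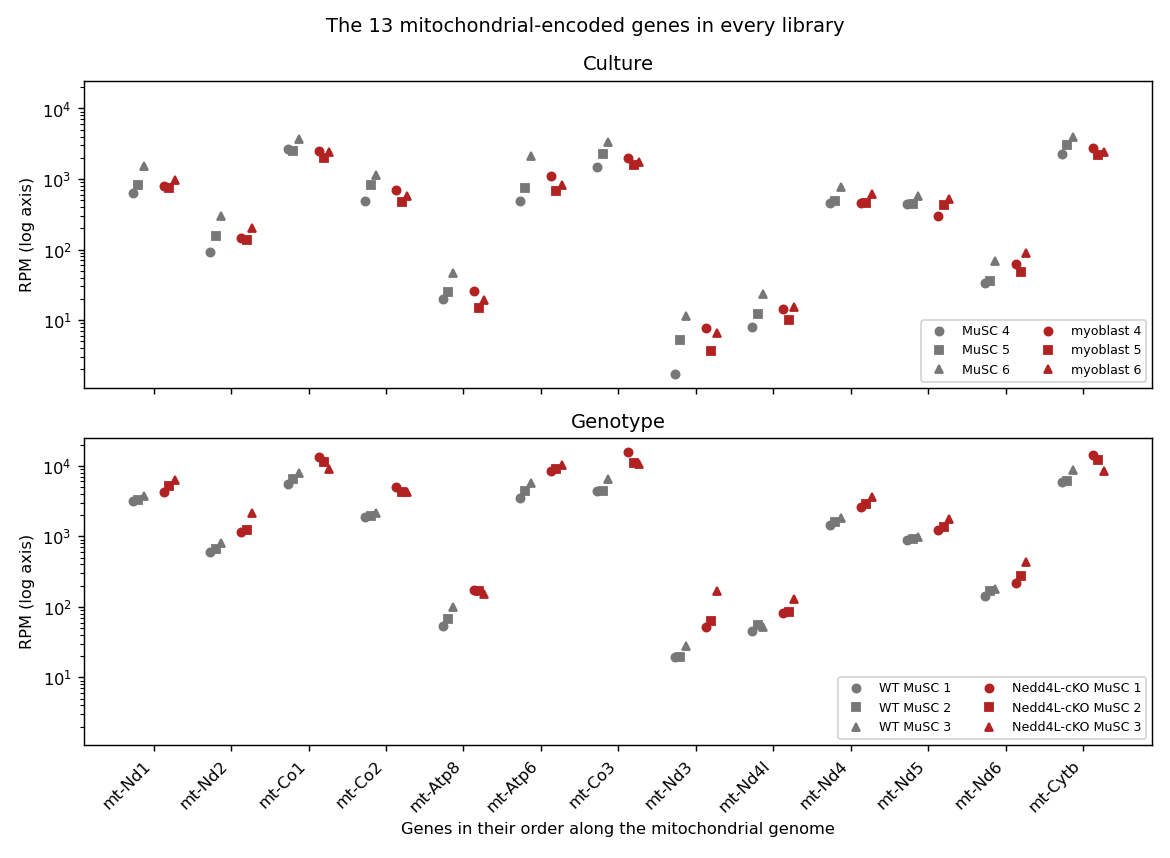
RPM (log y axis) of the 13 mitochondrial-encoded genes, in their order along the mitochondrial genome (x axis), in each library (symbols are replicates, grey: MuSCs or WT MuSCs, red: myoblasts or Nedd4L-cKO MuSCs). In the genotype panel the groups separated for 12 of 13 genes, mt-Cytb being the exception, and in the culture panel they overlapped for all 13.

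In culture the same 13 genes showed no such separation, and 11 of them had a negative log2 fold change. MuSC replicate 6 was the highest library for 12 of them. mt-Atp6 was at 491, 753 and 2096 RPM in MuSCs and 1093, 674 and 834 RPM in myoblasts, mt-Atp8 at 19.9, 25.1 and 45.9 RPM against 25.6, 14.8 and 19.1 RPM, and mt-Cytb at 2271, 3042 and 3900 RPM against 2713, 2177 and 2432 RPM. Without MuSC replicate 6 the median log2 fold change of the 13 genes was 0.089 instead of -0.18. The mt-Co genes gave 2689, 2499 and 3637 RPM against 2529, 1964 and 2416 RPM (mt-Co1), 488, 826 and 1155 RPM against 702, 465 and 578 RPM (mt-Co2) and 1497, 2272 and 3304 RPM against 1988, 1591 and 1740 RPM (mt-Co3). Their log2 fold changes were -0.34, -0.43 and -0.34, and without MuSC replicate 4 mt-Co2 was called lower (adjusted p = 0.0438, up to 0.722 with another library left out). The spread among the fresh MuSC libraries was thus as wide as any difference from the myoblasts.
Among the mt-Nd genes, mt-Nd6 alone was highest in a myoblast library, at 34.1, 35.9 and 68.9 RPM against 62.2, 48.3 and 88.3 RPM. mt-Nd1 was at 633, 834 and 1548 RPM against 783, 745 and 971 RPM, mt-Nd2 at 91.0, 155 and 298 RPM against 145, 136 and 201 RPM, and mt-Nd3 at 1.71, 5.14 and 11.6 RPM against 7.80, 3.64 and 6.57 RPM. For mt-Nd4 the values were 456, 494 and 764 RPM against 456, 453 and 620.4 RPM, for mt-Nd4l 8.04, 12.0 and 23.7 RPM against 14.2, 10.2 and 15.2 RPM, and for mt-Nd5 439, 446 and 570.2 RPM against 295, 434 and 523 RPM. All 7 overlapped between the groups.

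The same 4 mitochondrial-encoded genes led both cohorts by level per transcript length. Per kb of transcript, mt-Atp6 (6672 RPM per kb), mt-Co3 (6551) and mt-Cytb (5983) were the highest in WT MuSCs of the genotype cohort, and mt-Co3 (3007), mt-Cytb (2684) and mt-Co1 (1904) in fresh MuSCs of the culture cohort. mt-Nd3 was the lowest in both, at 64.7 and 17.6 RPM per kb. Among nuclear genes, Cox4i1 was the highest in both, at 1074 and 1189 RPM per kb, and Ndufb8 and Cox8a were among the first 4 in both.

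None of the 94 nuclear members was called in the genotype comparison, although 89 had a positive log2 fold change and 37 were higher at an unadjusted p under 0.05. Complex IV had the highest median (0.69 over 18 genes, 12 of them higher at that threshold), followed by complex V (0.62 over 17 genes, 9 higher), complex III (0.49 over 9, 3 higher), complex I (0.47 over 45, 12 higher) and complex II (0.38 over 4, 0 higher). Differences between complexes were not tested. Within complex I the accessory subunits had a median of 0.52, with all 29 above 0, and the 7 core subunits 0.24. Members with a negative value were Ndufa4l2 (-0.36), Cyc1 (-0.14), Sdha (-0.11), Ndufv1 (-0.09) and Ndufaf7 (-0.02).

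Nedd4L-cKO replicate 1 was the highest of the 6 libraries for 87 of the 94 nuclear members. Without it the nuclear median was 0.29, 13 nuclear members were higher at an unadjusted p under 0.05, and the medians were 0.21 for complex I, 0.10 for complex II, 0.26 for complex III, 0.47 for complex IV and 0.38 for complex V. The mitochondrial-encoded median was 1.07 without it, with all 13 genes higher at that threshold. The total of this library, 50687122 normalized counts, was the highest of the table. With each library scaled to its own total, the medians were 0.43 (nuclear) and 0.79 (mitochondrial-encoded), beside -0.09 over all genes.

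In complex I, Ndufs5 was at 185, 169 and 238 RPM in WT and at 416, 307 and 264 RPM in Nedd4L-cKO (log2 fold change 0.72, SE 0.26, adjusted p = 0.238), and Ndufa3 at 116, 114 and 134 RPM against 232, 178 and 176 RPM. Both are accessory subunits, and both had groups that did not overlap. The core subunit Ndufs1 was at 161, 191 and 177 RPM against 209, 181 and 201 RPM, with overlap.

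All 4 complex II genes stayed uncalled between genotypes. Sdha was at 277, 260.3 and 248 RPM in WT and at 244, 249.9 and 232 RPM in Nedd4L-cKO, a log2 fold change of -0.11 with a 95% interval from -0.60 to 0.37. Sdhb was at 506, 401 and 543 RPM against 807, 551 and 438 RPM, Sdhc at 78.1, 65.0 and 116 RPM against 183, 118 and 75.5 RPM, and Sdhd at 346, 258 and 328 RPM against 748, 391 and 368 RPM. Sdhd alone had groups that did not overlap.

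Of the 9 nuclear genes of complex III, Uqcrb, a small subunit near the ubiquinone site, had the largest difference, at 249, 214 and 313 RPM in WT and 652, 395 and 456 RPM in Nedd4L-cKO (log2 fold change 0.94, SE 0.27, adjusted p = 0.141). Uqcrh, the hinge protein, was at 222, 186 and 270.2 RPM against 525, 363 and 341 RPM (log2 fold change 0.85, SE 0.26, adjusted p = 0.176). Neither overlapped. The redox subunit Cyc1 was at 327, 232 and 212 RPM against 282, 196 and 219.5 RPM, with overlap, and its electron acceptor Cycs was at 235, 139 and 226 RPM against 558, 311 and 256 RPM, without overlap (log2 fold change 0.86, SE 0.33, adjusted p = 0.265).

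In complex IV the tissue isoforms had a median of 0.88 and the general subunits 0.63. Cox6a2 was at 2.14, 0.676 and 2.57 RPM in WT and 8.55, 6.48 and 4.68 RPM in Nedd4L-cKO (log2 fold change 1.48, SE 0.40, adjusted p = 0.126), and Cox8b at 6.23, 4.98 and 6.35 RPM against 24.2, 11.1 and 10.7 RPM (log2 fold change 1.16, SE 0.37, adjusted p = 0.185). Cox7a1 was at 8.54, 7.86 and 8.32 RPM against 17.0, 12.9 and 13.4 RPM. These muscle forms separated the groups but stayed below 25 RPM, and none passed the test. Among general subunits Cox6c was at 400.1, 305 and 397 RPM against 908, 596 and 567 RPM (log2 fold change 0.89, SE 0.26, adjusted p = 0.154), Cox8a at 529, 396 and 531 RPM against 1008, 714 and 661 RPM, and Cox6a1 at 324, 271 and 331 RPM against 589, 427 and 313 RPM. Cox6c and Cox8a separated the groups and Cox6a1 did not.

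Among the remaining complex IV genes, Cox4i1 was at 879, 710.0 and 941 RPM against 1596, 1106 and 935 RPM, Cox7a2 at 337, 265 and 374 RPM against 738, 457 and 406 RPM, and Cox7b at 223, 208 and 246 RPM against 451, 286 and 289 RPM. Cox6b2 was at 2.39, 1.66 and 3.89 RPM against 5.35, 5.23 and 5.88 RPM, and Cox6b1 at 338, 259 and 334 RPM against 525, 396 and 364 RPM. Ndufa4 was at 315, 282 and 411 RPM against 772, 479.8 and 437 RPM, and its relative Ndufa4l2, known to be induced by low oxygen, had the opposite sign, at 4.49, 6.28 and 21.1 RPM against 2.61, 4.45 and 20.3 RPM. Cox4i2 was at 2.15, 4.01 and 10.3 RPM against 5.34, 7.31 and 12.6 RPM. For Ndufa4l2 and Cox4i2 replicate 3 was the highest of either genotype, as it was for the smooth muscle and pericyte marker Rgs5 (280, 570 and 1034 RPM in WT and 355, 1270 and 1945 RPM in Nedd4L-cKO). Among the other markers of such cells, Myh11 and Pdgfrb were also highest in replicate 3 of both genotypes. Acta2 was instead highest in replicate 1 of both, at 949, 513 and 700 RPM in WT and 1661, 1066 and 993 RPM in Nedd4L-cKO. The part of smooth muscle cells and pericytes was not tested. Markers of smooth muscle and pericytes summed to 1095 to 1771 RPM in WT and to 2044 to 3005 RPM in Nedd4L-cKO. Of the 4, 3 were higher at an unadjusted p under 0.05, beside 7.51% of all genes, and 0 were called.

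In complex V all 17 nuclear members lay above 0. Atp5j2, a subunit of the membrane part, was at 156, 127 and 181 RPM in WT and 435, 261 and 229 RPM in Nedd4L-cKO (log2 fold change 0.95, SE 0.29, adjusted p = 0.164), and Atp5b at 1450, 1109 and 1211 RPM against 2351, 1758 and 1728 RPM. Neither overlapped. Among the c-subunit genes, Atp5g3 was at 447, 321 and 507 RPM against 1071, 738 and 591 RPM (log2 fold change 0.89, SE 0.29, adjusted p = 0.187), Atp5g2 at 52.6, 48.3 and 51.4 RPM against 83.0, 75.2 and 95.1 RPM, and Atp5g1 at 332, 256 and 345 RPM against 679, 375 and 329.5 RPM. Only Atp5g1 overlapped between the genotypes. Atp5g2 was 1 of 3 nuclear members with Nedd4L-cKO replicate 3 as the highest library.

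Median differences moved with transcript length among other genes in both comparisons and among OXPHOS genes in culture, and less regularly among OXPHOS genes between genotypes. Across genes, which are not independent replicates, the genotype difference went with length at a Spearman rho of -0.26 over the 93 nuclear OXPHOS genes and -0.18 over 13962 other genes, and in culture at 0.32 and 0.07. Length here is the median over the annotated isoforms of a gene, which need not be the message these cells express. By this measure nuclear OXPHOS transcripts are short, with a median of 966.5 bases. Other nuclear protein-coding genes of the genotype table had a median of 3252.5 bases. Other genes under 1 kb had a median log2 fold change of 0.35 between genotypes (673 genes, 81.1% positive), and the 48 OXPHOS genes of that length 0.60 (97.9% positive). In the bins of 1 to 2 kb and 2 to 4 kb the medians were 0.37 and 0.58 for 23 and 18 OXPHOS genes, beside 0.12 and -0.03 for other genes. The 2 to 4 kb bin held some small subunits, such as Atp5mpl (2874 bases), Uqcr11 (2673 bases) and Ndufb3 (2285 bases), and large ones such as Ndufs1 (3636 bases). Whether the messages in these cells were that long was not tested, so this bin may hold genes with shorter messages. In culture short genes went the other way, with -0.34 for 678 other genes and -0.35 for OXPHOS genes under 1 kb. Other genes under 1 kb took 10.1%, 9.44% and 10.9% of the counts of the WT libraries and 13.6%, 11.7% and 11.9% of the Nedd4L-cKO libraries, and 8.12%, 9.59% and 9.60% in fresh MuSCs against 7.88%, 7.16% and 7.88% in myoblasts. The part of library preparation or RNA quality in these shifts was not tested.

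**Figure D5:**
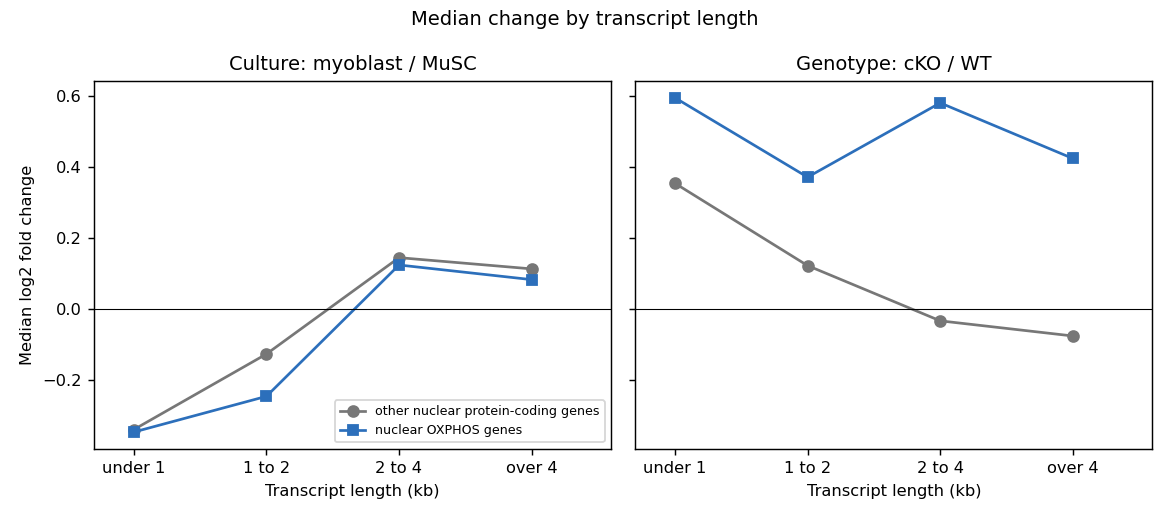
Median log2 fold change (y axis) of nuclear OXPHOS genes (blue squares) and other nuclear protein-coding genes (grey circles) by transcript length in kb (x axis). Length is the median over annotated isoforms and need not be that of the message expressed. The lines ran together in culture, at -0.35 and -0.34 under 1 kb, and lay apart between genotypes, at 0.60 and 0.35 under 1 kb and at 0.58 and -0.03 from 2 to 4 kb; the last OXPHOS point is 4 genes.

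Markers of mature fibers lay above WT in Nedd4L-cKO MuSCs as well. Of 20, 18 had a positive log2 fold change (median 0.84), beside 50.1% of all genes. At an unadjusted p under 0.05, 10 were higher and 1 lower, beside 7.51% and 7.13% of all genes. Only Actn3 was called, as lower. The summed level of the 20 genes was 755, 469 and 502 RPM in WT and 984, 783 and 830 RPM in Nedd4L-cKO. Fiber RNA carried into the sort was not tested as a source of these values.

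Lists of genes that control or assist OXPHOS had calls in both directions in culture and none between genotypes. Of 29 genes of mitochondrial biogenesis and of mitochondrial DNA expression, 7 were called higher and 5 lower in myoblasts, near the 22.2% and 20.6% of all genes, while 0 were called between genotypes, where 1 was higher and 1 lower at an unadjusted p under 0.05 and the median was 0.07. Ppargc1a, the coactivator PGC-1alpha, was at 1.49, 2.33 and 1.04 RPM in MuSCs and 2.62, 14.5 and 8.41 RPM in myoblasts (log2 fold change 1.66, adjusted p = 0.0308), and its partner Esrra at 4.17, 2.83 and 4.95 RPM against 6.84, 21.9 and 15.6 RPM (log2 fold change 1.55, adjusted p = 0.0188). Both rose in culture, most in replicates 5 and 6. Tfam, which packages and transcribes mitochondrial DNA, was not called in either comparison, at 48.4, 39.2 and 38.6 RPM in WT and 40.3, 41.2 and 28.4 RPM in Nedd4L-cKO.

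Of 48 listed assembly factors outside the Nduf symbols, 10 of the 47 tested were called higher and 6 lower in myoblasts, beside the same 22.2% and 20.6% of all genes. Those higher included Sco1 and Taco1 of complex IV and Tmem70 of complex V, and those lower included Surf1 and Coa6 of complex IV. Between genotypes 0 of 48 were called, 34 had a positive log2 fold change, 5 were higher and 1 lower at an unadjusted p under 0.05, and the median was 0.32. Genes for ubiquinone synthesis and for carriers that feed or drain the chain numbered 22. Of these, 5 were called higher and 3 lower in myoblasts, beside 22.2% and 20.6% of all genes. The muscle ADP/ATP carrier Slc25a4 was among those higher and Slc25a5 among those lower. Between genotypes 0 were called, with 0 higher and 1 lower at an unadjusted p under 0.05, and the median was 0.06.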

How the data were processed

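RNA of sorted or cultured cells was sequenced from SMART-Seq HT and Nextera XT libraries. The authors quantified reads with kallisto 0.46.1 (single-end) against GENCODE M28, summed transcripts to genes with tximport and divided counts by DESeq2 normalization factors. The deposited values used here are these normalized counts (a signal per gene, not raw counts), and whole reads were not recovered, since 44.4% to 62.3% of values under 20 were whole multiples of a fitted step within 0.02. The 18 RPM and repeated count columns, and the authors' fold changes and p-values, were not used.

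Normalized counts were divided by the mean of the 6 library totals to give RPM. Genes with 10 normalized counts in at least 3 libraries were tested on log2(RPM + 1) with limma 3.58.1 in R 4.3.3 (trend and robust options), with Benjamini-Hochberg adjustment over all tested genes and calls at an adjusted p of at most 0.05. The 2 tables were normalized separately and tested separately. The limma step was tested on simulated counts in which genes varied independently, without effects shared by a whole library. That test checks the code only and cannot bear on calls that single libraries move. Replicate numbers shared between groups only name samples, since the sources used here do not say that they mark a mouse, and p-values measure the spread between these samples. Alternatives covered scaling, filter, pseudocount, limma options, block, threshold and each library left out. Members, roles and lists were chosen with earlier results of these data known. All members were counted, and the text names genes called after adjustment, the largest changes of each complex and the isoform pairs, with some partners chosen after their values were seen. Transcript lengths, taken as the median over the annotated isoforms of a gene, and mitochondrial positions are from GENCODE M39 (GRCm39). Promoters are from RefSeq (GRCm38.p6). A result is not reported here.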

Additional observations from a re-analysis of the deposited data

How the results depend on the processing

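Depth per library is unknown, so the limit on low genes could not be set, and with 3 libraries a group an exact permutation test cannot go below 0.1. In culture, the 5 higher calls became 13 with each library scaled to its own total, with or without the mitochondrial-encoded genes in that total, 3 with limma without its trend and robust options and 3 at a stricter threshold (adjusted p of at most 0.01 and a log2 difference of 1 or more). The 11 lower calls became 6 under either own-total scaling and 1 at that threshold. That 1 was Cox4i2, which had to differ because of the filter and is no support. With 1 library left out, higher calls ranged from 3 to 4, lower calls from 3 to 24 and the mitochondrial-encoded median from -0.44 to 0.089, the last without MuSC replicate 6. With the replicate number as a block 4 were higher and 10 lower, where Cox6a1, Cox8a, Ndufb11 and Sdhc were lost and Atp5e and Cox7a2l gained. Same-numbered libraries had deviations that correlated at -0.0314, -0.00502 and 0.0180, no more than others, so these values do not show whether the numbers pair the samples.

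Between genotypes, the 2 higher calls became 1 without a filter on low values, 1 with a pseudocount of 0.1, 5 where every library had to reach 10 normalized counts, 5 at an adjusted p of at most 0.1, 0 among nuclear members alone and 0 with limma without its trend and robust options. With 1 library left out they ranged from 0 to 3, the count at an unadjusted p under 0.05 from 18 to 79 and the count without overlap from 58 to 91. Leaving out a library cannot make separated groups overlap, so the last count could not fall for that reason. With the replicate number as a block 1 gene was called, mt-Nd3, in place of mt-Co2 and mt-Co3, and deviations of same-numbered libraries correlated at 0.0192, -0.0232 and -0.181, so here too nothing shows a pairing. The cause of these moves was not tested. Over 45 named gene results, 579 of 667 alternative values kept direction and side of the threshold, 73 fell below it, 15 passed it and 0 changed sign past it. Genes not called with all libraries counted as kept when they stayed uncalled, and the 73 could come only from genes called there. The pooled count thus does not show how often calls held.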
